A study of Mus musculus with 12 samples.

Results

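RNA of CD11b+ and CD103+ dendritic cells sorted from healthy mouse kidney was compared, with 3 libraries of each kind. These 6 libraries are part of a series of 12, made from 6 wild-type male mice aged 8 to 12 weeks. The 3 healthy mice were untreated, and the 3 nephritic mice had received nephrotoxic antiserum 7 days earlier, a treatment that brings on an immune disease of the glomeruli. CD11b+ and CD103+ cells were taken from each mouse, so the mice behind both healthy groups are the same, although nothing in the labels ties library numbers to mice. The libraries were bulk RNA from cells enriched with CD45 beads and then sorted, and gating markers other than CD11b and CD103 are not given in the sources used here. Of 26121 genes in the table, 13505 were tested and 12616 were left out. A tested gene had a deposited log2 value of 0 or more in at least 3 of the 6 libraries. That is at least 1 CPM, a count scaled to a size set for each library.

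Conventional dendritic cells take up antigen in tissues and present it to T cells. The cDC1 lineage depends on the transcription factors IRF8, BATF3 and ID2, carries XCR1, CLEC9A and in many tissues CD103, and is known for presenting the contents of dead cells on MHC class I. The cDC2 lineage depends on IRF4, carries CD11b and SIRPA, and presents antigen mainly on MHC class II. CD11b is also carried by monocytes, macrophages, neutrophils and NK cells, so in the kidney, which is rich in macrophages, a CD11b+ gate can hold more than 1 lineage.

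The 5 genes that mark the comparison were C-type lectins on either side and one transcription factor. Clec10a and its neighbour Mgl2 encode the galactose-binding lectins MGL1 and MGL2, Cd209a encodes a mouse relative of the pathogen receptor DC-SIGN, Cd207 encodes langerin and Irf8 encodes the cDC1 factor. The 250 bases before the RefSeq transcription starts of Mgl2, Cd209a and Cd207 (GRCm38.p6) are printed because these markers lie on opposite sides of the comparison, the first pair toward CD11b+ and the last toward CD103+ cells. Mgl2 lies at chr11:70130107-70130356 on the plus strand, Cd209a at chr8:3748985-3749234 and Cd207 at chr6:83677858-83678107, both on the minus strand. Capitals mark a match to TGANTCA, the sequence bound by AP-1 factors, a family that includes BATF3.
Mgl2: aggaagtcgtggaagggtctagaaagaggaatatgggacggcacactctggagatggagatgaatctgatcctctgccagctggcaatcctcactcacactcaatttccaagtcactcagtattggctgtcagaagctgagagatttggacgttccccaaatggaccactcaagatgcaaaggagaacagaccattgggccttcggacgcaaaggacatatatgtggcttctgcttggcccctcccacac
Cd209a: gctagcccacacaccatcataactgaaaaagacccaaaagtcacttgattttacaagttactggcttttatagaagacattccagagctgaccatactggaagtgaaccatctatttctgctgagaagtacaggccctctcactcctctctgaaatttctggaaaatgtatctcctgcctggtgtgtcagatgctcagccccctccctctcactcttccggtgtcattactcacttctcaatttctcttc
Cd207: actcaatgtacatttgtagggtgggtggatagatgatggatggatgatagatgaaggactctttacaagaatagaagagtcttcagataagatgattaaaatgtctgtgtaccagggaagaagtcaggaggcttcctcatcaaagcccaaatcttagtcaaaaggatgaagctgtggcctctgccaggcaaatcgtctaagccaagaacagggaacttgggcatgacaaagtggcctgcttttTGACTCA
The match in Cd207 fills the last 7 bases before its annotated start. Each promoter was searched on both strands for TGANTCA and for TTGCNNAA, which C/EBP factors bind. Over all 32851 entries of the RefSeq promoter table, in windows of the same length, they occurred in 6.75% and 9.56%. Among the 14 genes with the largest differences toward CD11b+ cells, described later, 13 had an entry, of which 2 (Ccl9 and Kcne3) held TGANTCA and 2 (Adgre4 and Cd209b) held TTGCNNAA. Of the 14 toward CD103+ cells, 9 had an entry, of which 3 (Cd207, Guca2a and Zfp57) held TGANTCA and 0 held TTGCNNAA. Clec10a is named only.

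Positions of genes are those of GENCODE M21 on GRCm38. Clec10a (ENSMUSG00000000318, chromosome 11, 70156197 to 70170834) stood at 2.003, 2.82 and 2.55 CPM in the CD103+ libraries and 366, 426 and 391 CPM in the CD11b+ libraries. Mgl2 (ENSMUSG00000040950, chromosome 11, 70130329 to 70137550) stood at 16.5, 7.23 and 12.00 CPM in the CD103+ libraries and 1608, 1633 and 1814 CPM in the CD11b+ libraries. Cd209a (ENSMUSG00000031494, chromosome 8, 3743397 to 3748984) stood at 3.004, 2.23 and 4.73 CPM in the CD103+ libraries and 396, 458 and 410.1 CPM in the CD11b+ libraries. All 3 lectins were low in every CD103+ library and high in every CD11b+ library, with no overlap. Such separation is common here. Of the 13505 tested genes, 3673 had every CD11b+ library above every CD103+ library on the deposited scale, and 3733 had the reverse. Cd207 (ENSMUSG00000034783, chromosome 6, 83671215 to 83677857) stood at 87.6, 44.3 and 102 CPM in the CD103+ libraries and 0.761, 3.91 and 1.59 CPM in the CD11b+ libraries. Irf8 (ENSMUSG00000041515, chromosome 8, 120736358 to 120756694) stood at 415, 206 and 513 CPM in the CD103+ libraries and 55.2, 55.1 and 45.6 CPM in the CD11b+ libraries. For both, every CD103+ library lay above every CD11b+ library, and CD103+ library 2 was the lowest of its group. On the deposited scale the log2 differences, CD11b+ minus CD103+, were 7.32 ± 0.19 (SE) for Clec10a, 7.22 ± 0.27 for Mgl2, 7.04 ± 0.26 for Cd209a, -5.41 ± 0.54 for Cd207 and -2.77 ± 0.30 for Irf8. Relative to leukocyte genes, a scale explained below, they were 6.02 ± 0.39, 5.92 ± 0.33, 5.74 ± 0.31, -6.71 ± 0.52 and -4.07 ± 0.30. Their adjusted p-values in limma, with Benjamini-Hochberg adjustment over the 13505 genes on the deposited scale, were 1.04e-07, 3.58e-07, 3.58e-07, 0.000169 and 0.000279.

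The 2 groups of libraries differed in what else they held. The 40 measured genes of a pan-leukocyte list had a mean log2 level of 6.54, 5.85 and 6.95 in CD103+ libraries and 7.80, 7.81 and 7.64 in CD11b+ libraries. Ptprc, which encodes CD45, stood at 307, 177 and 488 CPM in the CD103+ libraries and 1103, 1009 and 781 CPM in the CD11b+ libraries. Genes of the proximal tubule, the reabsorbing segment of the nephron, went the other way, and the 15 measured together took 5.69%, 6.11% and 3.88% of reads in CD103+ against 0.876%, 1.16% and 2.21% in CD11b+ libraries. Transcripts of the mitochondrial genome took 10.8%, 12.1% and 9.85% against 3.19%, 3.21% and 3.77% of reads. CD103+ library 2 had the lowest leukocyte level and the highest tubule and mitochondrial shares. Recovered reads per library ran from 11486182 to 20839155, with overlapping ranges in both groups. In bulk RNA, fewer cells of a type and less RNA per cell cannot be told apart, and the part of tubule transcripts in the differences below was not tested beyond the values given.

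**Figure D1:**
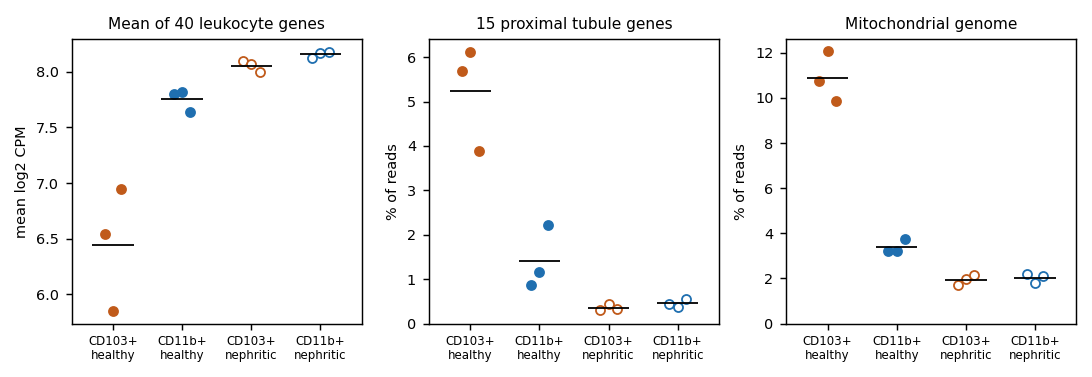
Mean log2 level of 40 leukocyte genes, percent of reads on 15 proximal tubule genes and percent of reads on the mitochondrial genome. Each point is 1 library, filled for healthy and open for nephritic kidney, and lines are means of 3; the 3 healthy CD103+ libraries stand apart from the other 9 in all 3 panels.

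Counts over all genes and over gene lists are therefore given on 2 scales, and a single difference names its scale. The deposited scale is the authors' log2 CPM. On the leukocyte scale each library was shifted so that the mean of the 40 leukocyte genes is equal, so a value there is relative to leukocyte transcripts. The shift moved the median difference of all tested genes from 0.01 to -1.29. On the deposited scale 2516 genes (18.6%) were higher and 2835 (21.0%) lower in CD11b+ cells at adjusted p under 0.05 in limma. On the leukocyte scale 462 (3.42%) were higher and 7925 (58.7%) lower. The counts of gene lists below are to be read beside these shares, and single leukocyte-scale differences beside the median of -1.29. Of the 40 leukocyte genes themselves, 33 were higher and 0 lower as deposited, and 2 and 6 on the leukocyte scale. All 2835 genes lower on the deposited scale were lower on the leukocyte scale as well, whereas 461 (3.41%) were higher on both, 2048 were higher on the deposited scale alone and 7 changed from higher to lower. Without CD103+ library 1 the 2835 lower genes were 1732 on both scales, and without CD11b+ library 2 the 2516 higher genes were 1639, and 299 on the leukocyte scale and 298 on both. The proximal tubule level was also tried as a covariate on the deposited scale. Its mean log2 level was 9.88, 9.93 and 9.35 in CD103+ and 7.37, 7.51 and 8.53 in CD11b+ libraries, without overlap, so it was tied to 84.5% of the variance of the grouping and widened the standard errors 2.54-fold by construction. With it 44 genes were higher and 10 lower, and a lost call there cannot be told apart from lost precision. Some marker and identity genes kept differences of similar size, and others moved. Clec10a stood at 7.32 ± 0.19 without and 7.28 ± 0.49 with the covariate, and Mgl2 at 7.22 ± 0.27 and 7.29 ± 0.68. Irf8 moved from -2.77 ± 0.30 to -3.76 ± 0.67 (adjusted p = 0.0623 in limma with it) and Clec9a from -3.21 ± 0.36 to -4.50 ± 0.80. Itgax moved from 1.01 ± 0.24 to 0.43 ± 0.55 and Ptprc from 1.68 ± 0.33 to 0.27 ± 0.65. Genes that still passed included Clec10a, Mgl2, Cd209a, Irf4, Itgam, Csf1r, Cx3cr1, Itgae, Xcr1 and Tlr3. Because the filter needs 1 CPM in 3 libraries, some genes were tested only through the group where they are high. On the CD11b+ side that holds for 1 to 4 members of 13 lists, and for all 7 tested neutrophil genes. Among them were 4 of the 24 lectins, 3 of 20 Toll-like receptor genes, 3 of 12 B cell genes and 2 of 13 NK cell genes. On the CD103+ side it holds for 1 of 23 cDC1 genes, 1 of 14 chemokine and lipid receptor genes and the 1 tested erythroid and platelet gene. The filter set the direction of such genes, so their calls are no result, although the counts below include them.

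**Figure D2:**
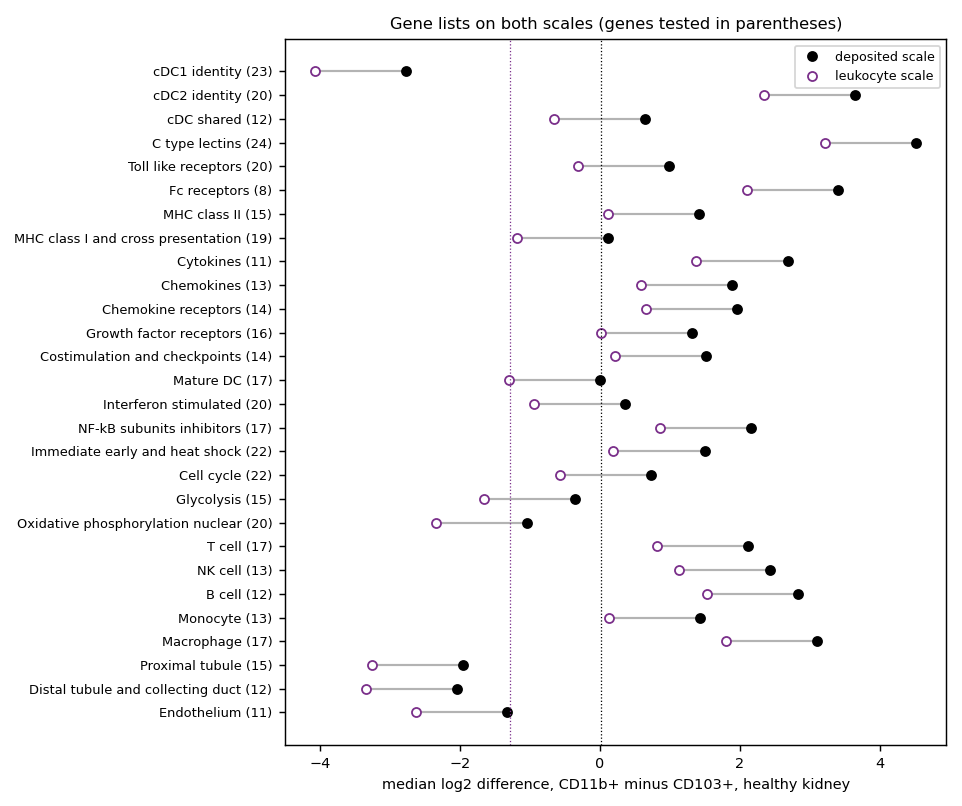
Median log2 difference, CD11b+ minus CD103+, of 28 gene lists in healthy kidney, as deposited (black) and relative to leukocyte genes (open), with the number of genes tested. Dotted lines are the medians of all 13505 genes on each scale, 0.01 and -1.29; the cDC1 and tubule lists lie left of both lines, and the lectin, cDC2 and Fc receptor lists lie furthest right.

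The cDC1 programme was lower in CD11b+ cells almost as a whole. Of 23 identity genes tested, 21 were lower and 0 higher on the deposited scale (median -2.77), and all 23 were lower on the leukocyte scale (median -4.07). Of the 23, 1 was tested only through the CD103+ libraries. Itgae, which encodes CD103 itself and so checks the sort, stood at 114, 55.5 and 106 CPM in the CD103+ libraries and 1.69, 3.27 and 1.71 CPM in the CD11b+ libraries. Xcr1, the receptor for the chemokine XCL1 made by cytotoxic lymphocytes, stood at 328, 216 and 507 CPM in the CD103+ libraries and 15.5, 25.7 and 17.9 CPM in the CD11b+ libraries. Clec9a, which binds actin exposed on dead cells, stood at 72.3, 54.2 and 152 CPM in the CD103+ libraries and 12.1, 7.42 and 8.26 CPM in the CD11b+ libraries. The CD11b+ libraries kept a low but measurable level of each, and no library of one group reached the other. Naaa, a lysosomal amidase, averaged 911 ± 363 CPM in CD103+ and 129.8 ± 15.4 CPM in CD11b+ libraries (SD, n = 3 each), and the palmitoyl hydrolase Ppt1 averaged 1881 ± 613 CPM and 303 ± 37.2 CPM. Wdfy4, which is required for cross-presentation, Cadm1, an adhesion molecule, and Btla, an inhibitory receptor, differed less, by -1.65 ± 0.28, -0.88 ± 0.24 and -1.46 ± 0.25 on the deposited scale and by -2.96, -2.18 and -2.77 on the leukocyte scale. The Cadm1 call was lost without CD11b+ library 2 (adjusted p = 0.0548). Batf3, whose protein partners IRF8, did not pass there (-0.46 ± 0.30, adjusted p = 0.246), with 24.8, 16.5 and 39.3 CPM in the CD103+ libraries and 21.8, 16.8 and 16.7 CPM in the CD11b+ libraries, and was lower on the leukocyte scale (-1.77 ± 0.32).

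Most of the cDC2 list was higher in CD11b+ cells. Of 20 genes tested, 14 were higher and 1 lower on the deposited scale (median 3.64), and 12 were higher and 2 lower on the leukocyte scale (median 2.34). Itgam, which encodes CD11b, stood at 1.94, 1.86 and 1.45 CPM in the CD103+ libraries and 114, 129 and 129 CPM in the CD11b+ libraries; its exons overlap other genes over 68.7% of their length. Irf4 stood at 2.54, 1.32 and 1.27 CPM in the CD103+ libraries and 81.1, 98.6 and 70.98 CPM in the CD11b+ libraries. Sirpa, the receptor for the CD47 signal on healthy cells, stood at 21.96, 17.3 and 11.6 CPM in the CD103+ libraries and 167, 137 and 122 CPM in the CD11b+ libraries. S100a4, a calcium-binding protein, and Cd300a, an inhibitory receptor for phosphatidylserine, averaged 56.98 ± 8.801 CPM against 1.32 ± 0.547 CPM and 162 ± 22.02 CPM against 9.38 ± 4.32 CPM. The exons of S100a4 overlap other genes over 51.7%. Esam, an adhesion molecule of a subset of splenic cDC2 that endothelium also expresses, was the 1 gene lower on the deposited scale (-1.33 ± 0.45, and -2.63 ± 0.63 on the leukocyte scale), a deposited-scale call lost without CD103+ library 1 or 2 or CD11b+ library 2 or 3. The count lower on the leukocyte scale was 1 without CD103+ library 1 or CD11b+ library 1 or 2, and 4 without CD103+ library 2.

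**Figure D3:**
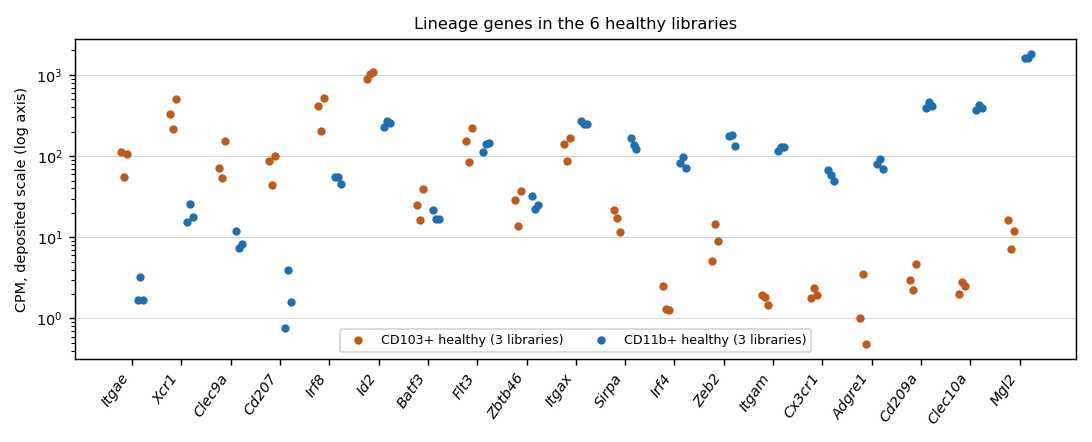
CPM of 19 lineage genes in the 6 healthy libraries on a log axis, 1 point per library. From Itgae to Id2 every CD103+ library lies above every CD11b+ library, Batf3, Flt3 and Zbtb46 overlap, and from Itgax to Mgl2 every CD11b+ library lies above every CD103+ library on this deposited scale.

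Genes that both conventional lineages share lay between these extremes. Flt3, the receptor of the growth factor on which both depend, stood at 152, 85.01 and 220.4 CPM in the CD103+ libraries and 113, 139 and 147 CPM in the CD11b+ libraries. Zbtb46, a transcription factor that sets conventional dendritic cells apart from monocytes, stood at 28.8, 13.7 and 36.7 CPM in the CD103+ libraries and 32.1, 22.6 and 25.02 CPM in the CD11b+ libraries. For both genes the groups overlapped, and neither passed on the deposited scale (adjusted p = 0.824 and 0.822). Relative to leukocyte genes both were lower in CD11b+ cells, with differences of -1.40 ± 0.31 for Flt3 and -1.20 ± 0.33 for Zbtb46, the latter losing its call without CD103+ library 1 (adjusted p = 0.0503) or CD11b+ library 2 (0.0674). Both lay near the median of all tested genes on that scale, -1.29, so neither stood apart from the typical gene. Itgax, which encodes CD11c, averaged 256 ± 14.1 CPM against 132 ± 41.3 CPM (CD11b+ against CD103+ libraries), higher on the deposited scale by 1.01 ± 0.24 and not called on the leukocyte scale (-0.29). Among 12 shared genes, 6 were higher and 3 lower on the deposited scale, and 2 and 6 on the leukocyte scale. The 2 higher on both were Spib, an ETS factor (3.52 ± 0.45 and 2.21), and Bcl11a, a zinc finger factor (2.32 ± 0.26 and 1.02), whose leukocyte-scale call was lost without CD103+ library 1 or CD11b+ library 2 or 3. Without CD103+ library 1 the count lower on the deposited scale, otherwise 3, was 0.

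Transcription factors of the 2 lineages were set apart in the same way. Id2, an inhibitor of E proteins that cDC1 require, stood at 889, 1035 and 1074 CPM in the CD103+ libraries and 226, 270.3 and 257 CPM in the CD11b+ libraries. Zeb2, a repressor that favours cDC2 and monocytes over cDC1, stood at 5.14, 14.4 and 8.97 CPM in the CD103+ libraries and 177, 180.4 and 134 CPM in the CD11b+ libraries. The groups were well separated for both genes, in opposite directions. Of 26 factors tested, 16 were higher and 3 lower on the deposited scale, beside 18.6% and 21.0% of all genes. On the leukocyte scale 5 were higher and 8 lower, beside 3.42% and 58.7% of all genes. The 5 were Irf4, Zeb2, Prdm1, Cebpb and Runx1, with leukocyte-scale differences of 4.35 ± 0.43, 2.91 ± 0.50, 1.54 ± 0.59, 1.82 ± 0.52 and 1.06 ± 0.31; without CD11b+ library 1 they were 2. The calls of Prdm1 (lost without CD103+ library 1 or CD11b+ library 1 or 3), Runx1 (CD11b+ library 1 or 2) and Cebpb (CD11b+ library 1) each rested on single libraries. Maf, a factor of macrophages, was lower in CD11b+ cells on both scales (100.4 ± 21.7 CPM against 248 ± 37.4 CPM).

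Lectins had the highest median difference of the 5 sensing lists. Of 24 C-type lectins tested, 18 were higher and 3 lower in CD11b+ cells on the deposited scale (median 4.52), and 15 and 4 on the leukocyte scale (median 3.22). These counts include 4 lectins that passed the filter through the CD11b+ libraries alone. The 3 lower on both were Cd207, Clec9a and Ly75, which encodes the antigen-uptake receptor DEC-205; the deposited-scale call of Ly75 was lost without CD103+ library 1 (adjusted p = 0.0575). Members of the Cd209 family were higher together. Cd209b stood at 0.467, 0.364 and 0.606 CPM in the CD103+ libraries and 118, 117 and 106 CPM in the CD11b+ libraries. Cd209c stood at 0.534, 0.955 and 0.546 CPM in the CD103+ libraries and 85.01, 101 and 86.1 CPM in the CD11b+ libraries. Cd209d averaged 24.7 ± 7.78 CPM against 2.41 ± 1.01 CPM. Neighbouring inhibitory and activating members on chromosome 6 followed, with Clec4a1 at 159 ± 27.4 CPM against 2.53 ± 0.417 CPM, Clec4a3 at 113 ± 31.7 CPM against 1.097 ± 0.385 CPM and Clec4b1 at 218 ± 42.4 CPM against 7.97 ± 4.26 CPM. Mrc1, the mannose receptor, stood at 1.001, 3.18 and 0.849 CPM in the CD103+ libraries and 171, 145 and 152 CPM in the CD11b+ libraries. Clec7a, the beta-glucan receptor dectin-1, averaged 109 ± 32.2 CPM against 3.41 ± 1.18 CPM. Reads shared among near-identical members of the Cd209 and Clec4 clusters may be assigned to the wrong member, so single-member levels are uncertain.

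Toll-like receptors were divided between the sorts by receptor. Tlr3, which senses double-stranded RNA in endosomes, stood at 157, 81.2 and 169 CPM in the CD103+ libraries and 13.4, 14.6 and 12.4 CPM in the CD11b+ libraries. Tlr12, which senses profilin of parasites, was also lower in CD11b+ cells (-3.04 ± 0.61 on the deposited and -4.34 ± 0.66 on the leukocyte scale). Tlr2, a sensor of bacterial lipoproteins, averaged 103 ± 18.4 CPM against 17.5 ± 7.53 CPM, and Cd14, the coreceptor for lipopolysaccharide, 638 ± 93.7 CPM against 70.1 ± 43.2 CPM. Tlr7, a sensor of single-stranded RNA, had 2 reads over the CD103+ libraries and 576 over the CD11b+ libraries, a ratio of 314 (95% counting interval 86.6 to 2602, counting error only). Of 20 receptors and adaptors, 11 were higher and 3 lower on the deposited scale, and 5 and 7 on the leukocyte scale, where the 5 were Tlr2, Tlr7, Tlr8, Cd14 and the adaptor Ticam2. The filter admitted 3 of the 20 through the CD11b+ libraries alone, Tlr7 among them, so the direction of those 3 is no result.

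Receptors for antibody, and several complement genes, lay on the CD11b+ side. Of 8 Fc receptor genes 7 were higher on the deposited scale and 6 on the leukocyte scale, with 1 lower there. The inhibitory receptor Fcgr2b stood at 32.8, 22.4 and 35.5 CPM in the CD103+ libraries and 395, 446 and 389.5 CPM in the CD11b+ libraries. The activating receptor Fcgr3 stood at 1.94, 3.14 and 2.73 CPM in the CD103+ libraries and 97.5, 131 and 96.5 CPM in the CD11b+ libraries. Fcer1g, the signalling chain of activating Fc receptors, averaged 675 ± 78.6 CPM against 81.6 ± 28.1 CPM. All 3 were separated without overlap. That 1 gene lost its call without CD103+ library 1 or CD11b+ library 1 or 2, and 2 were lower without CD103+ library 2 or 3. Of 13 complement genes, 7 were higher and 2 lower on the deposited scale, and 3 and 4 on the leukocyte scale; without CD103+ library 2 the latter were 6 and 2. Without CD103+ library 1 the 4 were 2, and the 2 lower on the deposited scale were 1 without CD103+ library 1 or 2 or CD11b+ library 1 or 2. Cfp, properdin, which stabilises the alternative-pathway convertase, averaged 537 ± 22.6 CPM against 27.3 ± 11.2 CPM, and the anaphylatoxin receptor C5ar1 50.1 ± 20.8 CPM against 0.700 ± 0.487 CPM.

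Of 14 tested genes for taking up dead cells, 6 were higher and 3 lower on the deposited scale, and 4 and 6 on the leukocyte scale. Beside 18.6% higher and 21.0% lower of all genes as deposited, and 3.42% and 58.7% on the leukocyte scale, the lower counts do not exceed the background. Cd163, a scavenger receptor for haemoglobin, stood at 2.07, 0.773 and 0.727 CPM in the CD103+ libraries and 64.3, 91.1 and 94.2 CPM in the CD11b+ libraries. Cd36, a scavenger receptor for lipids that tubule and endothelium also express, stood at 2050.5, 1763 and 2265 CPM in the CD103+ libraries and 372, 377 and 452 CPM in the CD11b+ libraries. Axl, a receptor for phosphatidylserine bridged by Gas6, was higher in CD11b+ cells (18.2 ± 5.05 CPM against 2.32 ± 1.38 CPM), and its relative Mertk was lower (4.96 ± 1.58 CPM against 14.3 ± 4.66 CPM). The leukocyte-scale call of Axl was lost without CD103+ library 1 or CD11b+ library 2, and the deposited-scale call of Mertk without CD103+ library 1 (adjusted p = 0.0525).

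Antigen presentation on MHC class II was higher in CD11b+ libraries as deposited, and few of its genes passed relative to leukocyte genes. Of 15 genes tested, 12 were higher and 1 lower on the deposited scale (median 1.42), while on the leukocyte scale 2 were higher and 2 lower (median 0.11). Cd74, the invariant chain, stood at 38628, 28232 and 61821 CPM in the CD103+ libraries and 137460.0, 139960.0 and 137270.0 CPM in the CD11b+ libraries. H2-Ab1, a class II chain, averaged 9045 ± 425 CPM against 3016 ± 1292 CPM. For Cd74 the difference of 1.76 ± 0.32 on the deposited scale became 0.46 ± 0.23 on the leukocyte scale (adjusted p = 0.0944), and for H2-Ab1 1.67 ± 0.30 became 0.37 ± 0.26 (adjusted p = 0.22). Ctss, the protease that trims the invariant chain, averaged 1516 ± 172 CPM against 299.8 ± 114 CPM, and H2-DMb2, a chain of the peptide editor DM, 505 ± 23.4 CPM against 120.2 ± 44.1 CPM; these were the 2 higher on both scales. H2-Ob, a chain of the DM inhibitor, was lower on the leukocyte scale (-0.72 ± 0.29) and Lgmn, a lysosomal protease that the tubule also expresses, was lower on both (-1.13 ± 0.26 and -2.43). The count higher on the leukocyte scale was 4 without CD103+ library 2, 1 without CD103+ library 1 or CD11b+ library 1 or 3, and 0 without CD11b+ library 2. The leukocyte-scale call of Ctss was lost without CD11b+ library 2, and those of H2-DMb2 and H2-Ob without CD103+ library 1 or any 1 CD11b+ library. The count lower was 1 without CD103+ library 1 or any 1 CD11b+ library.

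Genes of the class I pathway lay near the shift of all genes on the leukocyte scale, with a median of -1.19 against -1.29 for all tested genes. The class I heavy chains H2-K1 and H2-D1 and B2m, their light chain, were higher on the deposited scale, by 1.51 ± 0.25, 1.46 ± 0.34 and 1.16 ± 0.22, and not called on the leukocyte scale (0.20, 0.16 and -0.14). H2-K1 and H2-D1 are near-identical to each other over long stretches, so their split of reads is uncertain. The peptide transporter genes Tap1 and Tap2 and the loading chaperone Pdia3 did not pass on the deposited scale (-0.10, -0.26 and -0.33) and were lower on the leukocyte scale (-1.40 ± 0.30, -1.56 ± 0.34 and -1.63 ± 0.34). The immunoproteasome subunit Psmb9 behaved likewise (-0.53 and -1.83). Over the 19 genes of the list, 6 were higher and 1 lower on the deposited scale and 1 and 13 on the leukocyte scale, beside 58.7% of all genes lower there. The 1 lower on the deposited scale was 2 without CD103+ library 2. The 1 gene higher on both was Cybb, the catalytic subunit of the phagocyte oxidase, at 12.95, 13.1 and 19.6 CPM in the CD103+ libraries and 529, 591 and 389 CPM in the CD11b+ libraries.

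Signals to T cells were mostly higher on the deposited scale. Of 14 costimulatory and inhibitory genes, 9 were higher and 0 lower there (1 lower without CD103+ library 2), and 2 and 2 on the leukocyte scale. The 2 higher on both were Tnfsf9, the ligand of 4-1BB (715 ± 66.1 CPM against 30.4 ± 24.2 CPM), and Cd200r1, an inhibitory receptor (55.9 ± 3.87 CPM against 8.62 ± 5.87 CPM). Cd86 and Havcr2, a costimulatory ligand and an inhibitory receptor, were lower on the leukocyte scale (-1.80 ± 0.31 and -2.29 ± 0.36) and not called on the deposited scale (-0.50 and -0.98). Of 17 genes of mature, migratory dendritic cells, 6 were higher and 3 lower on the deposited scale, and 1 and 9 on the leukocyte scale. The shares of all genes lower were 21.0% and 58.7%, near those of this list. Ccr7, the receptor that leads dendritic cells to lymph nodes, averaged 146 ± 16.1 CPM against 49.3 ± 10.7 CPM (1.58 ± 0.20 as deposited, 0.28 and not called relative to leukocyte genes). Without CD103+ library 1 the 3 genes lower on the deposited scale were 0, and without CD11b+ library 2 they were 1. The 1 gene higher on the leukocyte scale was 0 without CD103+ library 1 or any 1 CD11b+ library, and 3 without CD103+ library 2.

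Secreted proteins differed by gene. Of 11 cytokine genes 7 were higher and 2 lower on the deposited scale, and 4 and 4 on the leukocyte scale. Il1b, an inflammatory cytokine, stood at 63.5, 53.6 and 152 CPM in the CD103+ libraries and 518, 563 and 469.7 CPM in the CD11b+ libraries. Il12b, the chain shared by IL-12 and IL-23, stood at 7.81, 28.02 and 11.9 CPM in the CD103+ libraries and 0.254, 1.19 and 0.0590 CPM in the CD11b+ libraries, with wide spread within CD103+ cells, and Il15, a survival factor of NK and memory T cells, averaged 16.04 ± 4.87 CPM in CD103+ and 6.91 ± 0.849 CPM in CD11b+ cells. Tnf and the IL-6 family member Osm averaged 43.3 ± 6.05 CPM and 13.2 ± 1.57 CPM in CD11b+ cells against 5.82 ± 3.59 CPM and 0.899 ± 1.06 CPM. Of 13 chemokines 9 were higher and 1 lower on the deposited scale, and 4 and 4 on the leukocyte scale. The 4 higher on both were Ccl9, Ccl6, Ccl3 and Cxcl2, which attract myeloid cells; Ccl9 stood at 3.27, 2.14 and 3.21 CPM in the CD103+ libraries and 222, 269.6 and 301 CPM in the CD11b+ libraries. Ccl7, a monocyte attractant, was the 1 lower on the deposited scale (-0.89 ± 0.30, and -2.20 ± 0.34 on the leukocyte scale), a deposited-scale call lost without CD103+ library 3 or any 1 CD11b+ library.

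Receptors for such signals followed the lineages. Of 14 chemokine and lipid receptors 11 were higher and 3 lower on the deposited scale, and 6 and 3 on the leukocyte scale. Besides Xcr1, the lower ones included Cxcr3, a receptor for interferon-induced chemokines (82.9 ± 26.8 CPM in CD103+ and 39.02 ± 4.54 CPM in CD11b+ cells). Cx3cr1, the fractalkine receptor that maintains kidney dendritic cells and macrophages, stood at 1.802, 2.37 and 1.94 CPM in the CD103+ libraries and 67.5, 58.6 and 49.9 CPM in the CD11b+ libraries. Ccr1, an inflammatory receptor, averaged 78.4 ± 15.04 CPM in CD11b+ cells against 2.44 ± 0.977 CPM. Among 16 growth factor and cytokine receptors, 12 were higher and 1 lower on the deposited scale, and 5 and 3 on the leukocyte scale. Csf1r, the receptor of the macrophage growth factor, stood at 12.02, 10.7 and 7.03 CPM in the CD103+ libraries and 192, 193 and 146 CPM in the CD11b+ libraries; its exons overlap other genes over 15.1%. The 1 lower on both was Kit, the stem cell factor receptor, at 13.6 ± 2.14 CPM against 24.5 ± 1.94 CPM, a deposited-scale call lost without CD103+ library 1.

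NF-kB subunits, inhibitors and close targets were all on 1 side. All 17 tested were higher in CD11b+ cells on the deposited scale (median 2.17), and 5 were higher on the leukocyte scale (median 0.86). The shares of all genes higher were 18.6% and 3.42%. Of the 40 pan-leukocyte genes, 33 were also higher on the deposited scale (median 1.33). Of the 17, 1 was tested only through the CD11b+ libraries. The 5 were Nfkbiz, Nfkbia, Nfkbie, Tnfaip3 and Nfkb1, the last losing its call without CD103+ library 1 or any 1 CD11b+ library; without CD103+ library 2 they were 10. Nfkbiz, a nuclear regulator, stood at 20.6, 14.5 and 23.4 CPM in the CD103+ libraries and 258, 311 and 262 CPM in the CD11b+ libraries. Nfkbia, the inhibitor that holds NF-kB in the cytoplasm, stood at 90.9, 60.9 and 124 CPM in the CD103+ libraries and 731, 726 and 883 CPM in the CD11b+ libraries. Immediate-early and heat-shock genes, which enzymatic tissue digestion is known to raise, had 16 of 22 higher and 0 lower on the deposited scale, and 7 and 4 on the leukocyte scale. Zfp36, which destabilises cytokine mRNA, averaged 4838 ± 154 CPM against 835 ± 253 CPM, and Jun 466 ± 94.7 CPM against 84.2 ± 10.5 CPM. The leukocyte-scale call of Jun was lost without CD11b+ library 1, and 2 rather than 4 genes were lower there without CD11b+ library 2. The part of these genes in the NF-kB values was not tested.

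Of 22 cell cycle genes 11 were higher on the deposited scale and 0 on the leukocyte scale, where 2 were lower (7 without CD103+ library 3, 1 without CD11b+ library 1 and 0 without CD11b+ library 2 or 3). The 11 were 6 or 7 without CD103+ library 1 or 2 or CD11b+ library 1 or 2. Of 20 interferon-stimulated genes 5 were higher on the deposited scale and 1 on the leukocyte scale, where 8 were lower, beside 18.6% of all genes higher and 58.7% lower on those scales. Without CD11b+ library 1 or 2 the 8 were 5. Of 20 nuclear genes of oxidative phosphorylation 18 were lower on the deposited scale and all 20 on the leukocyte scale, and all 7 measured genes of the mitochondrial genome were lower on both (medians -1.70 and -3.003). The values of tubule genes, which are rich in mitochondria, moved in the same direction in the same libraries. Of 15 glycolytic genes 1 was higher and 4 lower on the deposited scale (median -0.36), and 1 and 14 on the leukocyte scale (median -1.66); the 4 were 2 without CD11b+ library 1 or 2. The 1 higher on both was Hk2, a hexokinase of activated cells (2.51 ± 0.33 and 1.21), with the leukocyte-scale call lost without CD11b+ library 1.

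Markers of other cell types moved with the comparison, and their part in the values above was not tested. All 15 proximal tubule genes were lower in CD11b+ libraries on both scales. All 17 T cell genes were higher in CD11b+ libraries on the deposited scale (median 2.11) and 9 on the leukocyte scale (median 0.81), with summed levels of 1288, 1024 and 978 CPM in CD11b+ and 263, 212 and 362 CPM in CD103+ libraries. The 9 were 0 without CD103+ library 1 or CD11b+ library 1 and 1 without CD11b+ library 2 or 3. All 13 NK cell genes were higher on the deposited scale and 3 on the leukocyte scale, 1 without CD11b+ library 2 or 3, with sums of 396, 436 and 419.9 against 109, 70.7 and 107 CPM. Of 12 B cell genes 10 were higher on the deposited scale and 6 on the leukocyte scale, 3 without CD11b+ library 1 or 2, with sums of 682, 724 and 533 against 242, 149.5 and 222 CPM. Among those tested, 2 NK cell and 3 B cell genes passed the filter through the CD11b+ libraries alone. The 13 neutrophil genes summed to 121, 161 and 74.8 CPM in CD11b+ against 0.868, 5.41 and 2.67 CPM in CD103+ libraries, with S100a9 at 39.3 ± 15.8 CPM against 0.413 ± 0.248 CPM. The 7 of them that were tested passed the filter through the CD11b+ libraries alone, so their count is no result. Of the 6 left out by the filter, Ly6g, Camp and Ngp averaged at most 0.171 CPM in either group.

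Macrophage and monocyte markers were mixed. Of 17 macrophage genes tested 12 were higher and 3 lower on the deposited scale, and 10 and 4 on the leukocyte scale, with sums of 1972, 2063 and 1864 against 1320.0, 1366 and 1328 CPM. Adgre1, which encodes F4/80, stood at 1.001, 3.502 and 0.485 CPM in the CD103+ libraries and 79.6, 92.4 and 68.9 CPM in the CD11b+ libraries. Cd72, which B cells also carry and whose exons overlap other genes over 41.6%, averaged 177 ± 26.6 CPM against 5.46 ± 0.833 CPM. The complement component C1qb, usually a leading macrophage transcript, averaged 20.5 ± 10.8 CPM against 2.89 ± 1.78 CPM, with a leukocyte-scale call lost without CD103+ library 1 or CD11b+ library 2 or 3, and C1qa, Vsig4, Marco and Trem2 did not reach 1 CPM in 3 libraries. The 3 lower were Maf, Mertk and Cd81. Of 13 monocyte genes 10 were higher on the deposited scale and 4 on the leukocyte scale, where 1 was lower (3 without CD103+ library 3), and Ly6c2, of inflammatory monocytes, averaged 31.9 ± 4.73 CPM against 9.099 ± 2.17 CPM. Among those tested, 2 macrophage and 2 monocyte genes passed the filter through the CD11b+ libraries alone. Distal tubule and collecting duct genes were lower in CD11b+ libraries, 8 of 12 as deposited (5 without CD103+ library 2) and all 12 relative to leukocyte genes, and of 11 endothelial genes 1 was higher and 4 lower on the deposited scale (2 lower without CD103+ library 1 and 1 without CD103+ library 2, and 0 higher without CD103+ library 1 or 3 or CD11b+ library 1 or 2).

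The 14 largest differences toward CD11b+ cells relative to leukocyte genes, among genes that passed on both scales without overlap at 50 CPM or more, ran from 4.94 to 6.53 on that log2 scale. Besides Clec10a, Mgl2, Cd209a, Cd209b, Cd209c, Mrc1, Cd163, Clec4a3 and Ccl9, they held 5 genes. Tnip3, an inhibitor of NF-kB signalling, stood at 2.87, 4.18 and 2.61 CPM in the CD103+ libraries and 377, 368 and 401 CPM in the CD11b+ libraries. Mcemp1, a membrane protein of myeloid and mast cells, stood at 1.602, 2.32 and 2.001 CPM in the CD103+ libraries and 185, 159 and 160.2 CPM in the CD11b+ libraries. Adgre4, an adhesion-family receptor of myeloid cells, stood at 2.34, 1.68 and 0.546 CPM in the CD103+ libraries and 149.7, 141 and 102 CPM in the CD11b+ libraries. Sirpb1a, an activating relative of Sirpa with close paralogs, averaged 74.2 ± 19.5 CPM against 0.524 ± 0.439 CPM. Kcne3, a potassium channel subunit, averaged 54.6 ± 6.68 CPM against 0.492 ± 0.424 CPM. In nephritic kidney, whose libraries did not enter the choice, the CD11b+ libraries exceeded the CD103+ libraries by 4.33 to 9.22 on the deposited log2 scale. There 1992 of the 13505 genes (14.8%) were higher and 1880 (13.9%) lower in CD11b+ cells.

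The 14 largest differences toward CD103+ cells on the deposited scale, under the same conditions at 20 CPM or more, included genes of 2 kinds. Itgae, Xcr1, Cd207, Gcsam, Rab7b, Snx22 and Sept3 belong to the cDC1 list. Gcsam, a signalling adaptor first described in germinal centre B cells, stood at 137, 98.02 and 192 CPM in the CD103+ libraries and 7.94, 10.1 and 4.25 CPM in the CD11b+ libraries. Rab7b, a GTPase of the late endosome, stood at 162, 136 and 311 CPM in the CD103+ libraries and 7.86, 16.4 and 11.98 CPM in the CD11b+ libraries. Cyp8b1, known as a bile acid enzyme of the liver, stood at 74.8, 45.7 and 93.9 CPM in the CD103+ libraries and 2.54, 3.86 and 4.43 CPM in the CD11b+ libraries, and Zfp57, an imprinting factor, averaged 43.00 ± 18.5 CPM in CD103+ against 4.23 ± 2.28 CPM in CD11b+ cells. All 9 were also lower in nephritic CD11b+ cells, with log2 differences of -3.23 for Zfp57 and -9.03 for Cyp8b1. Atp6v1b1, Slc26a4 and Slc4a9, a proton pump subunit and 2 anion transporters of the acid-base cells of the collecting duct, and the peptide hormone Guca2a were also among the 14. Slc4a9 stood at 105, 69.3 and 21.4 CPM in the CD103+ libraries and 0.845, 11.04 and 12.3 CPM in the CD11b+ libraries, and in nephritic kidney it was higher in CD11b+ libraries (1.61 ± 0.24), as were Atp6v1b1 (1.43 ± 0.26) and Slc26a4 (1.38 ± 0.36), while Guca2a was not called there. The deposited-scale calls of Atp6v1b1, Slc26a4, Slc4a9 and Guca2a were each lost without at least 1 CD103+ library, CD103+ library 2 among them (adjusted p = 0.065, 0.0811, 0.159 and 0.179).

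A small group passed on both scales with opposite signs. The 7 such genes included the 6 named by the highest mean CPM: Cap1, an actin-binding protein, the translation initiation subunits Eif3g and Eif3h, the kinase Rps6kb1, the non-coding RNA Kcnq1ot1 and Brms1, a corepressor subunit whose exons overlap other genes over 79.03%. Cap1 stood at 399, 363 and 516 CPM in the CD103+ libraries and 619, 616 and 601 CPM in the CD11b+ libraries. On the deposited scale these 6 differed by 0.46 to 0.54 and on the leukocyte scale by -0.84 to -0.76, with adjusted p between 0.0381 and 0.0499. Each lost its call on at least 1 scale without any 1 of 5 libraries, the exception being CD103+ library 3.

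The same subsets of nephritic kidney, in separate libraries from other mice, had leukocyte gene levels of 8.05 in CD103+ and 8.16 in CD11b+ libraries (mean log2). Of the 461 genes higher on both scales in healthy kidney, 354 (76.8%) were called higher there and 1 (0.2%) lower. Of the 2835 lower on both scales, 395 (13.9%) were called lower and 332 (11.7%) higher. Among all 13505 tested genes, 14.8% were called higher and 13.9% lower in nephritic kidney. The share of the 2835 called lower there thus does not exceed the share of all genes. In nephritic kidney the cDC1 list had 0 higher and 23 lower of 23 and the cDC2 list 15 higher and 2 lower of 20, whereas of 15 proximal tubule genes 1 was higher and 0 lower and of 17 T cell genes 3 were higher and 0 lower. Itgae stood at 1229, 993 and 881 CPM in the CD103+ libraries and 5.05, 4.77 and 4.65 CPM in the CD11b+ libraries in nephritic kidney, and Xcr1 at 1249.5, 1166 and 953 CPM in the CD103+ libraries and 6.11, 4.05 and 4.16 CPM in the CD11b+ libraries. For Itgae and Xcr1 every nephritic CD103+ library lay above every healthy one, and Itgae in the CD11b+ libraries was above, and Xcr1 below, its healthy values.

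**Figure D4:**
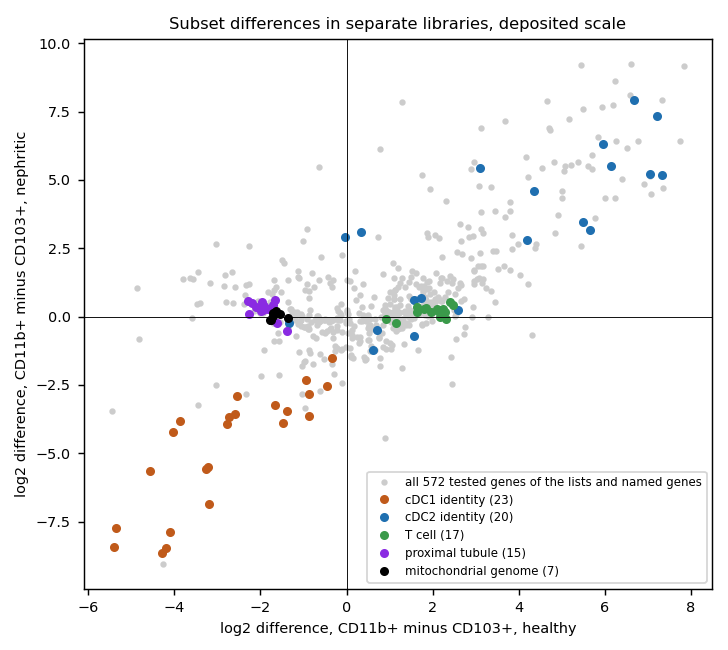
Log2 difference, CD11b+ minus CD103+, in healthy (x axis) and nephritic kidney (y axis) on the deposited scale for the 572 tested genes of the lists and named genes, with 5 lists coloured. The cDC1 list lies low and left and most of the cDC2 list high and right, while the proximal tubule, mitochondrial and T cell lists differ in healthy kidney and lie near 0 in nephritic kidney.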

How the data were processed

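RNA of sorted kidney dendritic cells was sequenced. Per the submitters' processing notes, the authors used STAR 2.0.4b, Subread, featureCounts 1.4.5 and edgeR; their genome build is not stated in any source used here. The deposited values are log2 CPM, with an offset of 0.5 reads. Counts were scaled to a size set for each library, which differed from its total of recovered reads. Multiplying out by that size gave whole reads, within 0.05, for 100% of values. Of 26281 lines, 160 repeats were dropped. Genes with a log2 value of 0 or more in at least 3 of the 6 healthy libraries were tested by limma (version 3.58.1, run under R 4.3.3; trended, robust, two-sided), adjusted by Benjamini-Hochberg over 13505 genes at 0.05, on the deposited and on the leukocyte scale. Nephritic libraries were fitted separately. The fit was also run on simulated counts with the same spread setting for all genes and no tubule or leukocyte difference between groups. That run cannot show how the fit behaves under such differences. Replicates share 3 mice per state, and intervals cover counting error only. The kit's strand is not stated, so overlapping genes cannot be told apart. Members and lists were chosen with earlier results of these data known. Named genes were the markers and identity genes, the 14 largest differences each way (at least 50 CPM in CD11b+ or 20 CPM in CD103+ cells), the 6 most abundant of opposite sign, up to 4 per list by smallest adjusted p, and lineage and presentation genes by role; 18 others were chosen after their values were seen. Alternatives tried were other filters, pseudocounts, normalizations, covariates and left-out libraries. Some genes are not reported here.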

Additional observations from a re-analysis of the deposited data

Results flagged for a closer look

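The CD11b+ minus CD103+ difference was larger or smaller in healthy than in nephritic kidney for 11 of the 20 identity genes, by a limma interaction across all 12 libraries that passed on both scales with the same sign. The share of all tested genes that passed this interaction is not given, so the 11 are no result about identity genes as a set. Healthy minus nephritic, on the deposited log2 scale, the gap of the cDC1 genes was narrower in healthy kidney for Cd207 (3.01), Itgae (2.38), Xcr1 (3.79), Clec9a (2.30) and Batf3 (2.06). The same sign was found for Irf4 (2.5) and Flt3 (2.34), while Sirpa (-2.35), Csf1r (-1.66), Cx3cr1 (-0.83) and the tubule gene Gpx3 (-2.19) had the opposite sign. On the leukocyte scale the median difference of all tested genes was -1.29 in healthy and -0.09 in nephritic kidney, against 0.01 in both as deposited. Relative to leukocyte genes, the positive values above are therefore smaller, and the negative ones larger in size. Gpx3 stood at 32194, 35422 and 22834 CPM in the CD103+ libraries and 4480.3, 7404 and 13679 CPM in the CD11b+ libraries in healthy kidney, and at 2064, 2952 and 2505 CPM in the CD103+ libraries and 2938, 2457 and 3527 CPM in the CD11b+ libraries in nephritic kidney, and its part in the other values was not tested.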

How the results depend on the processing

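With the proximal tubule level as a covariate, 44 genes were higher and 10 lower on the deposited scale; the covariate did not overlap between the groups. Relative to leukocyte genes, 285 were higher with Ptprc alone as the reference, 1137 with array weights (1127 on both scales) and 227 with a pseudocount of 4 CPM (227 on both scales). Leaving out 1 library gave 1639 to 2813 higher and 1732 to 2857 lower genes as deposited, 299 to 600 higher and 5831 to 9173 lower relative to leukocyte genes, and 298 to 597 higher and 1732 to 2857 lower on both. With a replicate block the counts were 1950 higher and 2343 lower as deposited, 386 and 7154 relative to leukocyte genes, and 384 and 2343 on both. Deviations of same-numbered libraries from their group means correlated at -0.03, -0.01 and -0.21. Deviations within a group of 3 libraries cancel out for each gene, so these correlations cannot decide whether the numbers mark mice. The numbers were not taken as pairs because the labels do not tie them to mice. Under the covariate, which contains Gpx3 itself, signs reversed for Atp6v1b1 (0.61), Gpx3 (0.27), Guca2a (2.14), H2-Ob (-0.0369), Lgmn (0.23), Mertk (0.14), Slc26a4 (1.52), Slc4a9 (1.14) and Zbtb46 (-0.78). Zbtb46 also reversed with array weights (-0.14) and without CD103+ library 2 or CD11b+ library 1, ranging from -0.31 to 0.40 as each library was left out. Flt3 reversed with quantile normalization (0.014) and without CD103+ library 3 or CD11b+ library 1 (-0.46 to 0.22), and Tap1 without CD103+ library 1 or 3 (-0.48 to 0.16). On the leukocyte scale Ccr7 (-0.0966), H2-Ab1 (-0.004), H2-D1 (-0.22) and H2-K1 (-0.17) reversed with Ptprc alone, B2m with array weights (0.14) and without CD103+ library 2 (-0.27 to 0.062), and Tlr8 with a pseudocount of 4 CPM (-0.36). The cause was not tested. The planned edgeR and DESeq2 alternatives were not run, since the deposited unit is log2, and limma voom on the recovered reads was chosen in their place after seeing the data.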
